A study of Homo sapiens and Mus musculus with 18 samples.

Results

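Collagens are the proteins whose 3 chains wind around each other into a triple helix, and here they are the protein-coding genes whose symbol is COL, a type number, A and a chain number. By that rule 44 of 58735 human genes and 44 of 54532 mouse genes are collagens, and they were grouped as fibrillar, basement membrane, FACIT (fibril-associated collagens with interrupted triple helices) and other. Bulk RNA was sequenced from 10 libraries of Met5a, an immortalised human mesothelial cell line, and from tumours of mouse KPCA cells, 8 in all. Both cell lines were grown in DMEM with 10% serum. The receptor AMHR2 binds anti-Müllerian hormone, a TGF-beta family ligand. The Met5a groups are V1 (4 libraries, cells overexpressing the form of AMHR2 that the submitters call active), V3 (3 libraries, cells overexpressing the form they call inactive) and CTR (3 libraries, control cells; whether they carried an empty vector is not given). The tumour groups are KO (4 tumours, Amhr2 knock-out), Het (2 tumours, Amhr2 heterozygous) and WT (2 tumours, wild type, strain C57BL6J). They follow the sample titles alone, because the genotype label does not separate the groups. KPCA cells are kept as a cell line, and whether the deletion is in the tumour cells or in the cells of the host mouse is not stated. The promoter that drives the added receptor, the number of clones, and the age and sex of the mice are likewise not given. No label says that the libraries of 1 group are separate cultures, so p-values measure the spread between these libraries, which may be technical.

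Each collagen chain carries glycine at a spacing of 3 residues in its helical part, because only glycine can pack in the centre of the triple helix. Fibrillar collagens have 1 long unbroken helix and assemble into the banded fibrils of connective tissue, while type IV collagens have many breaks and form the sheet-like network of basement membranes. Mesothelial cells and tumour stroma both lay down such matrix, and TGF-beta family signals are known regulators of its genes.

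The difference between the types can be read in the coding sequences. In the human GENCODE coding sequences, the longest stretch with a glycine codon in every triplet was 216 to 343 triplets long in the 11 fibrillar genes (median 338). It was 30 to 66 triplets in the 8 basement membrane genes (median 39.5), which had 13 to 27 separate runs of at least 5 triplets each, against 2 or 3 such runs in the fibrillar genes. The 10 FACIT genes had longest runs of 32 to 113 triplets, and the 15 other genes 23 to 87. In all, 5 stretches of 20 codons are shown because these genes lead or carry the results below, with the GG that opens every glycine codon in capitals. They are codons 179 to 198 of COL1A1, 213 to 232 of COL5A2, 782 to 801 of COL4A2, 2168 to 2187 of COL6A3 and 2803 to 2822 of COL12A1.
COL1A1: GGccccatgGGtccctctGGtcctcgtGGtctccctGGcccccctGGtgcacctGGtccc
COL5A2: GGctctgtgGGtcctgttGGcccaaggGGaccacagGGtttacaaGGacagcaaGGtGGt
COL4A2: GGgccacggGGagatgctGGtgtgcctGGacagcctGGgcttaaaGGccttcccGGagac
COL6A3: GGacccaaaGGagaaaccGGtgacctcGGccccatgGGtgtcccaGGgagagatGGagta
COL12A1: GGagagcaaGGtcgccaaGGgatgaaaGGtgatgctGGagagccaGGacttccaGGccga
The capitals recur every 9 letters in all 5 stretches, with 1 further glycine codon at the end of that of COL5A2, and the letters between them differ from gene to gene.

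**Figure D1:**
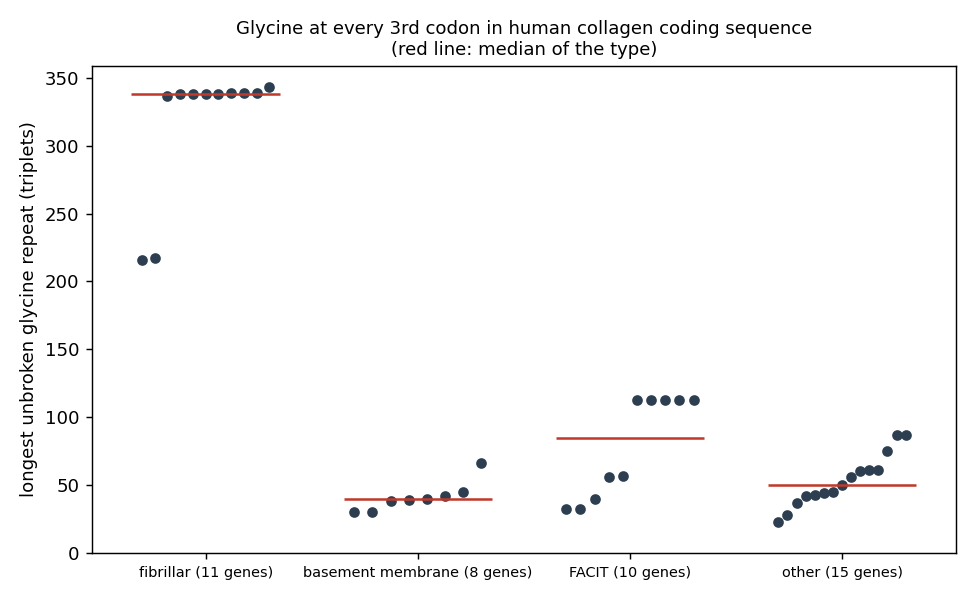
Longest unbroken run of triplets that open with a glycine codon, in triplets, for each human collagen gene by type (1 point per gene, red line the median). The fibrillar genes lie at 216 to 343 triplets, above every gene of the other types, of which the longest has 113.

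Several collagen genes stand as pairs. COL4A1 and COL4A2 on chromosome 13 and COL4A6 and COL4A5 on the X chromosome are transcribed away from a shared start region, and COL3A1 and COL5A2 on chromosome 2 lie tail to tail with 19149 bases between them. The starts of COL4A1 and COL4A2 in RefSeq are 126 bases apart on GRCh38.p14, and those of COL4A6 and COL4A5 are 379 bases apart. Shown on the plus strand are 30 bases around the CCAAT motif (chr13:110307166-110307195) and 30 bases around the overlapping GGGCGG and GGCGCC motifs (chr13:110307209-110307238) between the COL4A1 and COL4A2 starts, and the 250 bases before the COL4A5 start (chrX:108439588-108439837), where both CCAAT motifs, 1 on each strand, are in capitals.
COL4A1-COL4A2 CCAAT: cgggccgagctccCCAATttgttggcgctg
COL4A1-COL4A2 GC box: ggcggtgcgcGGGCGGCGCCtcaaagggga
COL4A6-COL4A5: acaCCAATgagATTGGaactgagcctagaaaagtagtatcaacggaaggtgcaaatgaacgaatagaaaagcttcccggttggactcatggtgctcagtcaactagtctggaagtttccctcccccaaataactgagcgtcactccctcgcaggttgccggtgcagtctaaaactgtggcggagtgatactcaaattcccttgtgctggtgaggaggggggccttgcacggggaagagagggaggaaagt
RefSeq promoter windows of 300 bases were at hand for 32 of the 44 human collagens. Motifs were searched on both strands of the 250 bases before the start only. There CCAAT stood in 28.1% of them, against 33.0% of all 27305 promoters, GGGCGG in 56.2%, against 42.3%, TATAAA in 15.6%, against 11.1%, and GGCGCC in 31.2%, against 16.1%. These shares are descriptions of letters and were not tested.

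Levels between genes are given as FPKM, the authors' count per gene length and sequencing depth. In Met5a, COL5A2, a chain of the minor fibrillar collagen V, stood first at a mean of 126 FPKM over the 10 libraries, which is 22.5% of the summed collagen FPKM. COL6A1 and COL6A2, chains of the beaded-filament collagen VI, followed at 109.6 and 73.1 FPKM. COL3A1, the chain of fibrillar collagen III, had 63.1 FPKM, COL5A1 54.0 FPKM and COL12A1, a FACIT that coats fibrils, 37.2 FPKM. COL1A1, the main chain of collagen I, ranked 12th with 5.89 FPKM.

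In the tumours Col1a1 stood first at 730.5 FPKM, or 23.7% of the summed collagen FPKM. Col3a1 had 466 FPKM, Col6a1 436.5 FPKM, Col18a1, whose C-terminal fragment is endostatin, 340.3 FPKM, and Col6a2 167 FPKM. Collagens took 1.59 to 3.03% of all counts in the tumours and 0.278 to 0.662% in the Met5a libraries. The deposited gene lengths were 1.22 to 4.22 times the coding length of the human collagens (median 1.94), so FPKM understates genes whose annotated length is far above their transcript. Per coding length, 6 of the first 10 human genes changed rank, and COL5A2, COL6A1 and COL6A2 kept ranks 1 to 3.

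Of the 44 collagens in each species, 30 human and 36 mouse genes had enough counts to be tested, and 22 and 25 reached a mean of 5 CPM (counts scaled to library size). Genes with an annotated neighbour on the same bases number 25 of 44 in human, 20 of them with a neighbour on the other strand, and 28 and 18 of 44 in mouse. Strand use in counting is not known here, so a part of such counts may belong to the neighbour. In Met5a the untested genes were COL11A1, COL21A1, COL24A1, COL23A1, COL4A4, COL10A1, COL4A3, COL28A1, COL22A1, COL25A1, COL9A1, COL6A6, COL6A5 and COL19A1, and all but the first 2 stayed at or below 1.00 CPM in every library. In the tumours they were Col25a1, Col6a4, Col2a1, Col9a2, Col9a1, Col22a1, Col26a1 and Col19a1, with at most 2.99 CPM, and Col19a1 had 0 counts in all 8.

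Total counts were 15489888 to 21642906 per Met5a library and 17746902 to 28070669 per tumour. A count of 0 allows up to 0.140 to 0.177 CPM in Met5a and 0.119 to 0.164 CPM in the tumours (3 counts; counting error only). AMHR2 had 1176, 416, 42 and 90729 counts in V1, 121681, 1094 and 47 counts in V3, and 0 counts in all CTR libraries, so the level of the added receptor differed widely within both groups. Amhr2 had 8, 11, 3 and 3 counts in KO tumours, 11 and 5 in Het and 0 and 5 in WT, too few to check the labels. Of the mesothelial markers, KRT8, KRT18 and VIM had at least 96.4 CPM in every Met5a library, but CALB2 ran from 0.446 to 57.5 CPM and WT1 from 0 to 3.88 CPM. The tumours held Pax8 at 18.2 to 28.1 CPM and Krt8 at 1125 to 2023 CPM, while Epcam was 119 CPM in KO543 and at most 1.75 CPM in the other tumours. Libraries CTR 3 and V1 1, and tumours KO543 and WT438, had the highest mitochondrial shares of their species (4.93 to 5.09% and 4.33 to 4.87%). V1 4 and V3 1, with by far the most AMHR2 at 5253 and 6061 CPM, were the most alike in collagens of all 45 pairs of Met5a libraries. Over the 22 collagens with a mean of at least 5 CPM their median fold difference was 1.05, against 1.21 for the next pair and a median of 1.64 over the pairs. V1 4 and V3 1 carry different receptor forms by their labels. The next pair was CTR 1 with CTR 2. After it came V1 4 and V3 1, each with CTR 2, at 1.25 and 1.27, although CTR 2 had 0 AMHR2 counts. In bulk samples, fewer cells of a type and less RNA per cell cannot be told apart.

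V1 against CTR asks what the active receptor does to Met5a cells. Most collagens had a lower fitted level in V1 cells, 23 of 30 tested, with a median log2 fold change of -0.51, against 0.01 over all genes. No collagen passed the adjusted threshold of edgeR's quasi-likelihood test (smallest adjusted p 0.569), while 1 of 17175 genes did (0.00582%). At an unadjusted p under 0.05 stood 5 of 30 collagens, all lower in V1, where 7.71% of all genes had such a p and 4.03% were also lower. Over all genes, 48.8% had a negative log2 fold change. DESeq2 called 2 collagens, COL14A1 and COL6A3, both lower in V1, among 50 of 17175 genes (0.291%). Limma on log2(FPKM + 1) called none of the 21 collagens it tested. COL14A1 and COL6A3 did not pass its FPKM filter, so limma could not call them. V3 against CTR asks the same of the inactive receptor and shares the CTR libraries. There 24 of 30 collagens had a negative log2 fold change (50.5% of all genes), the median was -0.38 against -0.00433 over all genes, and none passed edgeR's adjusted threshold, nor did any other gene (0%). An unadjusted p under 0.05 was found for 6 collagens (4.23% of all genes), 5 of them lower (2.46% of all genes) and COL4A6 higher in V3 (1.77%). DESeq2 called the same pair, COL14A1 and COL6A3, among 5 of 17175 genes (0.0291%). Limma called no collagen, again without testing that pair. Without V3 1 the median in V3 against CTR was -0.61, and without CTR 3 the split was 12 higher and 19 lower of 31. Without CTR 1 the collagens at an unadjusted p under 0.05 numbered 3 in V1 and 3 in V3, and without V1 2 they numbered 8 in V1.

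The fibrillar group held the genes with the most RNA. Values are CPM in the order V1 1 to 4, V3 1 to 3 and CTR 1 to 3. COL5A2 had 363, 979, 789 and 1099 CPM in V1, 1079, 917 and 920.2 CPM in V3, and 1094, 1319 and 936 CPM in CTR. V1 1 was the lowest and the groups overlapped, with a log2 fold change of -0.47 (SE 0.32) in V1 against CTR. COL5A1, the partner chain in collagen V, had 309.7, 701, 278 and 697 CPM in V1, 689, 334 and 734 CPM in V3, and 944, 1000.2 and 442 CPM in CTR. Both V1 and V3 overlapped with CTR, in which CTR 3 stood lower than CTR 1 and CTR 2. COL3A1 had 72.1, 812, 72.4 and 449.8 CPM in V1, 474, 164 and 63.2 CPM in V3, and 1047, 808 and 404 CPM in CTR. It varied 16.6-fold between libraries, and V1 1, V1 3 and V3 3 were the lowest. COL5A3, a minor collagen V chain, had 15, 99.6, 16.7 and 93 CPM in V1, 103, 10.6 and 6.76 CPM in V3, and 138, 127 and 26.4 CPM in CTR. As for COL3A1, V1 2, V1 4, V3 1, CTR 1 and CTR 2 were its 5 highest libraries.

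COL1A1 at chr17:50183289-50201632 (GENCODE 29, GRCh38) had 17.5, 24.2, 13.9 and 60.4 CPM in V1, 60.8, 20.9 and 32.7 CPM in V3, and 212, 110.1 and 34.9 CPM in CTR. The 2 highest libraries were both CTR and all V1 libraries but V1 4 lay below CTR 3, so the groups overlapped. In V1 the log2 fold change was -2.04 (SE 0.62) and in V3 -1.64 (SE 0.67), with edgeR adjusted p of 0.569 and 1.00. Without CTR 1 these log2 fold changes were -1.32 and -0.91. COL1A2, the second chain of collagen I, had 2.55, 12, 1.27 and 1.91 CPM in V1, 1.79, 1.98 and 1.44 CPM in V3, and 68.3, 4.04 and 0.885 CPM in CTR. Only CTR 1 and V1 2 stood above 5 CPM, and CTR 3 was the lowest of all 10. The log2 fold change of COL1A2 was -2.46 in V1 and -3.81 in V3, and without CTR 1 it was 0.85 and -0.49, so the sign in V1 rested on that library. COL27A1, a fibrillar collagen with a shorter helix known from cartilage, had 14.7, 45.2, 34.3 and 39.1 CPM in V1, 41.1, 38.2 and 69.6 CPM in V3, and 45.7, 38 and 60 CPM in CTR, and the groups overlapped. COL11A1, a collagen XI chain, had 562 counts (26.3 CPM) in CTR 1 and 0 in the other 9 libraries and was not tested. COL11A2 and COL2A1, both cartilage collagens, stayed at 2.32 to 7.73 and 0.235 to 1.91 CPM.

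**Figure D2:**
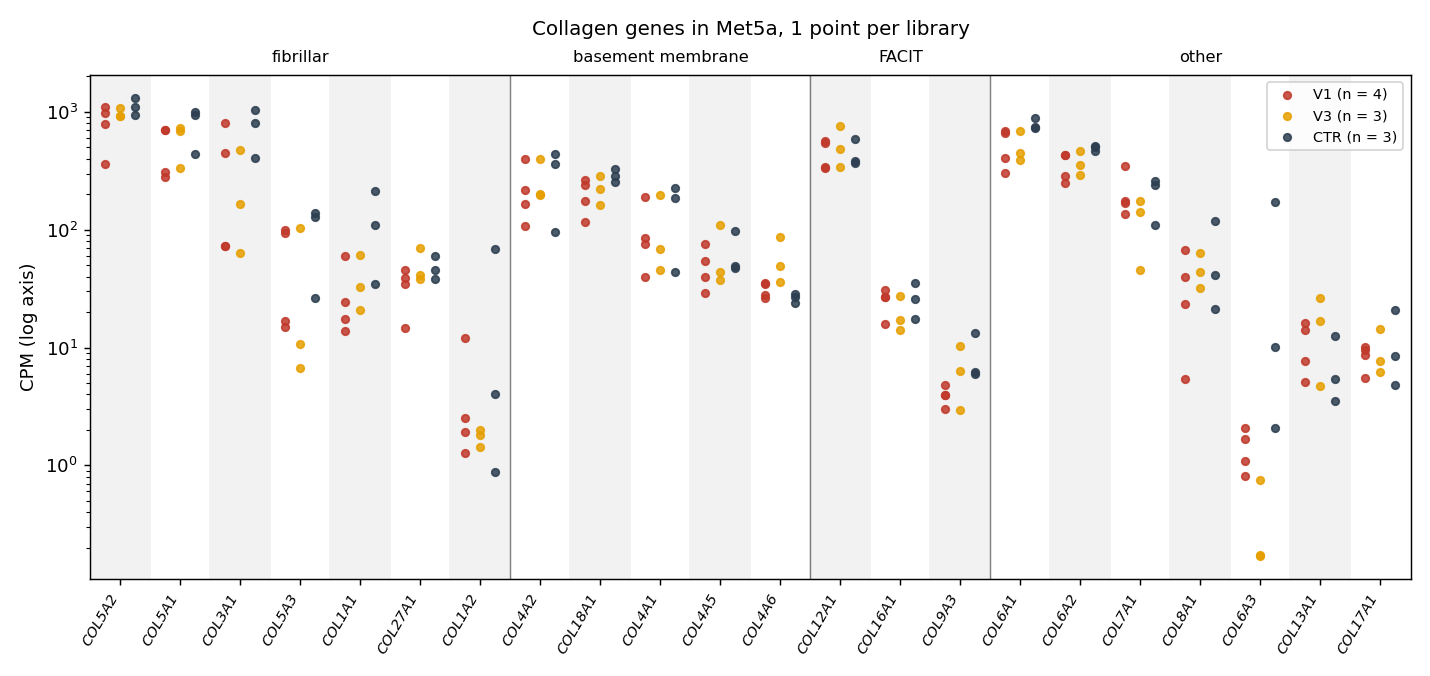
CPM of the 22 collagen genes with a mean of at least 5 CPM in Met5a, on a log axis, grouped by type (V1, V3 and CTR side by side, 1 point per library). COL6A3 and COL1A2 each have 1 CTR library far above all others, at 171 and 68.3 CPM, and COL6A1 in CTR lies above every V1 and V3 library.

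Basement membrane collagens form or border the sheets under epithelia and around vessels. COL4A2 had 216, 166, 107 and 397 CPM in V1, 401, 196 and 199.8 CPM in V3, and 364, 441 and 95.5 CPM in CTR. COL4A1, its partner in the network of most basement membranes, had 84.4, 75.7, 39.3 and 191 CPM in V1, 197, 68 and 45.8 CPM in V3, and 184, 225 and 43.4 CPM in CTR. In both genes V1 4, V3 1, CTR 1 and CTR 2 were the 4 highest libraries, so high and low values stood in every group. COL18A1 had 241, 174, 116 and 263 CPM in V1, 285, 162 and 219.9 CPM in V3, and 254, 284 and 329 CPM in CTR, with CTR 3 highest and V1 3 lowest. Its log2 fold change was -0.54 (SE 0.28) in V1 against CTR. COL4A5, a chain best known from kidney basement membrane and Alport syndrome, had 28.8, 76.3, 53.9 and 40.1 CPM in V1, 37.5, 43.7 and 110.4 CPM in V3, and 49.2, 47 and 98.1 CPM in CTR, and V3 3 and CTR 3 were the highest.

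COL4A6 at chrX:108155607-108439497, the gene that shares the start region printed above with COL4A5, had 34.6, 26.3, 35.4 and 28 CPM in V1, 36.2, 49.5 and 87.4 CPM in V3, and 28.3, 27.1 and 24 CPM in CTR. All 3 V3 libraries were above all CTR and V1 libraries. The log2 fold change was 1.12 (SE 0.29) in V3 against CTR with an edgeR adjusted p of 1.00, where 4.93% of all genes were likewise higher without overlap. It was -0.89 (SE 0.27) in V1 against V3, with an unadjusted p of 0.00601 from edgeR and 2.64% of all genes lower without overlap. Without V3 3 the log2 fold change was 0.72 in V3 against CTR and -0.48 in V1 against V3. COL4A5 did not follow, since V3 1 and V3 2 lay below all CTR libraries. COL15A1, a basement membrane collagen related to COL18A1, had 1.45, 1.39, 1.22 and 1.33 CPM in V1, 0.897, 1.19 and 0.809 CPM in V3, and 0.514, 1.403 and 1.65 CPM in CTR, and all V1 libraries were above all V3 libraries, as for 2.28% of all genes.

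Among the FACIT genes COL12A1 had 332, 546, 338 and 568.7 CPM in V1, 487, 341 and 758 CPM in V3, and 369, 591 and 380.1 CPM in CTR. V3 3 was the highest and the groups overlapped. COL16A1 had 16, 30.9, 26.7 and 26.8 CPM in V1, 27.2, 17 and 14.2 CPM in V3, and 25.6, 35.2 and 17.6 CPM in CTR. COL9A3, a chain of cartilage collagen IX, had 3.94, 4.81, 3.95 and 3.01 CPM in V1, 2.94, 6.33 and 10.3 CPM in V3, and 5.99, 6.23 and 13.4 CPM in CTR, and all V1 libraries were below all CTR libraries, with a log2 fold change of -1.12 (SE 0.44). Without CTR 3, the CTR library with the most COL9A3, it was -0.64.

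COL14A1 on chromosome 8, a FACIT found on mature collagen I fibrils, had 0.405, 0.0496, 0.282 and 0.984 CPM in V1, 0.847, 0.226 and 0.347 CPM in V3, and 4.21, 3.37 and 11.3 CPM in CTR. Every V1 and V3 library was below every CTR library, a pattern that 3.34% of genes had in V1 and 5.17% in V3. In V1 the log2 fold change was -3.87 (SE 0.78) and in V3 it was -3.70 (SE 0.86). The edgeR adjusted p was 0.569 and 1.00, and DESeq2 gave adjusted p of 0.00102 and 0.0176. COL21A1 had 22.9 CPM in CTR 1 and 0.047 to 1.85 CPM in the other 9 libraries and was not tested. COL20A1 and COL9A2 had at most 2.90 and 1.54 CPM.

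Collagen VI held high COL6A1 and COL6A2 beside a COL6A3 that differed widely between libraries. COL6A1 had 301, 684, 405 and 668 CPM in V1, 692, 389 and 452 CPM in V3, and 727, 744 and 886 CPM in CTR. All 3 CTR libraries were above all V1 and V3 libraries, with log2 fold changes of -0.61 (SE 0.31) in V1 and -0.62 (SE 0.33) in V3. COL6A2 had 250.3, 428, 287 and 427 CPM in V1, 469.7, 293 and 357 CPM in V3, and 516, 500.04 and 466 CPM in CTR. All V1 libraries were below all CTR libraries, while V3 1 lay above CTR 3. The log2 fold change of COL6A2 was -0.51 (SE 0.24) in V1 and -0.41 (SE 0.26) in V3. Neither gene passed edgeR's adjusted threshold, with adjusted p of 0.673 and 0.662 in V1.

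COL6A3 at chr2:237324003-237414375, the longest of the 3 collagen VI chains described, had 2.08, 1.69, 1.08 and 0.811 CPM in V1, 0.747, 0.169 and 0.173 CPM in V3, and 171, 2.08 and 10.1 CPM in CTR. CTR 1 stood far above the next library, CTR 3, and CTR 2 was just below V1 1, so V1 and CTR overlapped. All V3 libraries were below all CTR libraries, as for 5.17% of all genes. All V1 libraries were above all V3 libraries, as for 2.28% of all genes, but V3 2 and V3 3 had only 3 counts each. The log2 fold change was -5.43 (SE 1.16) in V1 and -7.33 (SE 1.49) in V3, and without CTR 1 it was -2.09 and -4.00. DESeq2 gave adjusted p of 0.012 and 0.000202. Of the other genes of this group, COL7A1, the anchoring fibril collagen of skin, had 175, 350.1, 135 and 167 CPM in V1, 176, 143 and 45.9 CPM in V3, and 241, 261 and 109 CPM in CTR. V1 2 was its highest and V3 3 its lowest library. COL8A1, a short-chain collagen of vessel walls and cornea, had 5.44, 23.2, 39.5 and 66.7 CPM in V1, 63.7, 43.6 and 32.1 CPM in V3, and 21, 40.9 and 119 CPM in CTR. COL13A1 and COL17A1 are membrane-spanning collagens. COL13A1 had 7.701, 5.11, 16.1 and 14.1 CPM in V1, 16.8, 26.2 and 4.74 CPM in V3, and 5.38, 12.5 and 3.54 CPM in CTR, and COL17A1 had 5.501, 10.1, 9.46 and 8.69 CPM in V1, 6.18, 14.2 and 7.74 CPM in V3, and 8.47, 4.83 and 20.6 CPM in CTR, and in both the groups overlapped. COL8A2 and COL26A1 stayed at 0.470 to 7.51 and 0.565 to 6.89 CPM.

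The extremes were spread unevenly over the libraries. Of the 22 genes with at least 5 CPM, the highest library was CTR 1 for 6, CTR 2 for 5 and CTR 3 for 5, V3 3 for 4, and V1 2 and V3 2 for 1 each. The lowest was V1 1 for 7 genes. Such counts were not made over all genes, so whether they are particular to collagens is not known. V1 against V3, which asks what separates the forms, had 12 collagens higher and 18 lower (46.2% of all genes were lower), with a median log2 fold change of -0.13 and no call by edgeR, DESeq2 or limma (smallest edgeR adjusted p 0.985, 0% of all genes called). COL4A6 and COL9A2 had an unadjusted p under 0.05, 2 of 30 against 4.01% of all genes. Without V3 1 the median was 0.11, without V1 4 it was -0.23, and without V1 3 it was 0.01.

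Fibroblast markers were set beside the collagens. Of the 11 fibroblast genes listed, 4 were tested and all 4 were lower in V1 and in V3 than in CTR. The list summed to 135 to 178 CPM in V1, 130 to 147 CPM in V3 and 130 to 258 CPM in CTR, and of the list FBLN1 made up most. LUM, DPT and THY1 were at 0 in at least 1 library each. CTR 1 stood apart for some markers of several cell types, but not for others of the same lists. The fibroblast marker PDGFRA was 64.1 CPM in CTR 1 and at most 0.826 CPM elsewhere, and THY1 was 7.48 CPM in CTR 1 and at most 0.174 CPM elsewhere. The endothelial receptors TEK and KDR were 12.9 and 9.40 CPM in CTR 1 and at most 0.449 and 2.01 CPM elsewhere, and the cartilage gene HAPLN1 was 9.17 CPM in CTR 1 and at most 0.173 CPM elsewhere. In contrast, the endothelial gene TIE1 was at its lowest in CTR 1 (0.327 CPM). CDH5, also endothelial, was 1.92 CPM there, in a range of 1.04 to 21.2 CPM. The cartilage genes SOX9 and MATN3 were 72.9 and 24.3 CPM in CTR 1, in ranges of 66.9 to 104 and 9.73 to 43.6 CPM. CTR 1 is also the library with the most COL6A3, COL1A2, COL11A1 and COL21A1. Summed endothelial markers were 32.8 to 90.2 CPM in V1, 65.8 to 91.2 CPM in V3 and 62.2 to 75.5 CPM in CTR, and cartilage markers 99.8 to 141 CPM in V1, 101 to 129 CPM in V3 and 78.9 to 118 CPM in CTR. The summed mesothelial markers were 1932 to 5680 CPM in V1, 2575 to 5773 CPM in V3 and 2672 to 6319 CPM in CTR. The part of these lists in the collagen levels was not tested.

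**Figure D3:**
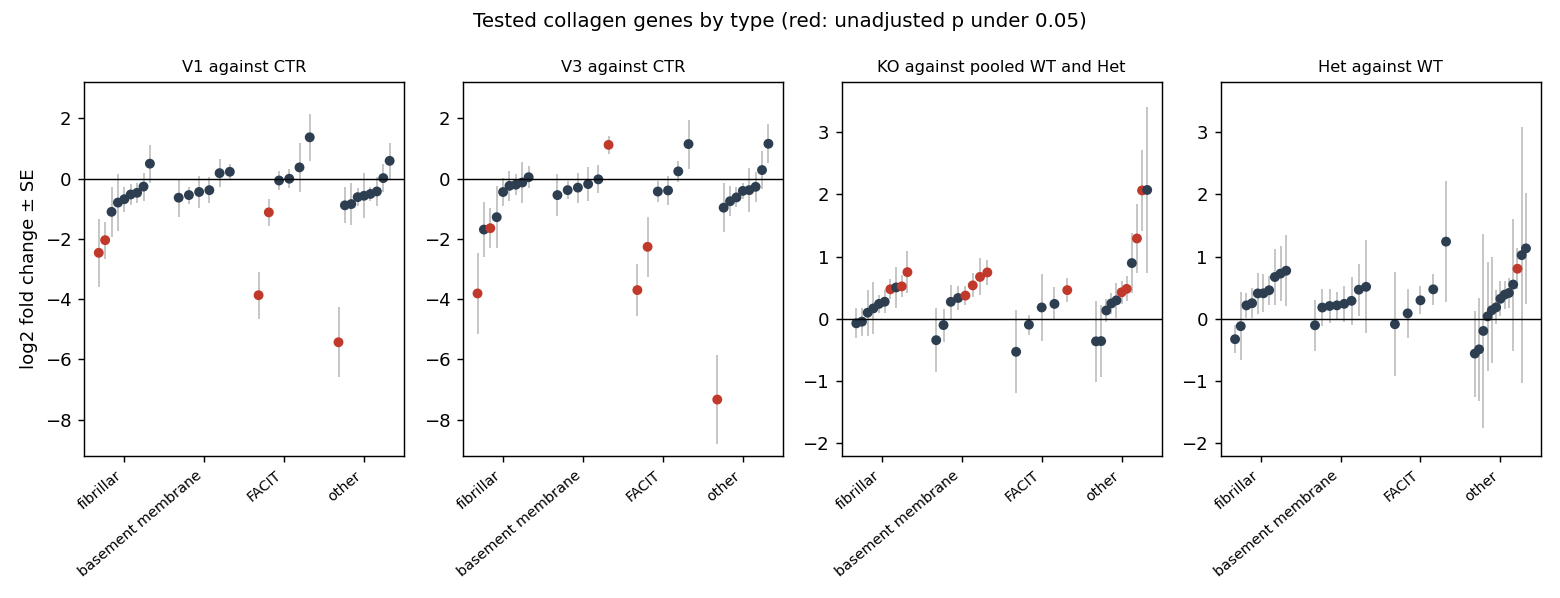
Log2 fold change with its standard error for each tested collagen by type in 4 comparisons, with red points for an unadjusted p under 0.05 (no gene passed the adjusted threshold). The medians were -0.51 in V1 and -0.38 in V3 against CTR, 0.29 in KO against pooled WT and Het, and 0.29 in Het against WT, and the vertical scales of the left and right pairs of panels differ.

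The machinery around collagen was read from lists of known genes. Of 21 tested genes of collagen synthesis, 16 were lower and 5 higher in V1 than in CTR, and PLOD2, which hydroxylates telopeptide lysines, averaged 266 ± 99.7 CPM in V1 and 509 ± 184 CPM in CTR while P3H2, a prolyl 3-hydroxylase, averaged 70.5 ± 5.69 CPM in V1 and 87.3 ± 11.1 CPM in CTR (SD, n = 4 and 3). Of 8 genes of procollagen processing, 7 were lower in V1, and BMP1, the proteinase that removes the C-propeptide, averaged 138 ± 55.5 CPM in V1 and 271 ± 72.1 CPM in CTR, and ADAMTS3, an N-proteinase, 0.730 ± 1.18 CPM in V1 and 5.86 ± 3.86 CPM in CTR. Of 6 cross-linking genes, 3 were lower, and LOX averaged 1.84 ± 1.26 CPM in V1 and 21.2 ± 28.1 CPM in CTR and LOXL1 150.3 ± 80.1 CPM in V1 and 93.3 ± 13.1 CPM in CTR. Both tested proteoglycans of fibrils were lower, decorin (DCN, also in the fibroblast list) at 0.589 ± 0.677 CPM in V1 and 4.58 ± 1.65 CPM in CTR and podocan (PODN) at 1.52 ± 1.85 CPM in V1 and 5.74 ± 3.42 CPM in CTR. None of these genes was called.

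Of 10 tested collagen receptors, 7 were lower in V1 than in CTR, but ADGRG1, a receptor for collagen III, averaged 28.7 ± 7.57 CPM in V1 and 11.8 ± 1.92 CPM in CTR, and ITGA1, an integrin chain that binds collagen, 3.72 ± 3.21 CPM in V1 and 12.5 ± 5.82 CPM in CTR. Of 11 collagen breakdown genes, 7 were lower, with the gelatinase MMP2 at 5.38 ± 2.09 CPM in V1 and 14.6 ± 8.201 CPM in CTR and the collagenase MMP1 at 1.08 ± 1.03 CPM in V1 and 14.5 ± 23.4 CPM in CTR. Of 19 genes of the TGF-beta axis, 12 were lower, with LTBP3, which holds latent TGF-beta, at 265 ± 44.4 CPM in V1 and 408 ± 63.9 CPM in CTR and TGFB1 at 177 ± 46.8 CPM in V1 and 244 ± 31.2 CPM in CTR. Across the 7 lists edgeR called no gene, and 12 of 77 tested genes (15.6%) had an unadjusted p under 0.05, against 7.71% of all genes.

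In V3 against CTR the synthesis genes were even, 11 higher and 10 lower, with COLGALT2, which adds galactose, at 0.327 ± 0.169 CPM in V3 and 1.53 ± 2.06 CPM in CTR and MIA3, which loads procollagen into vesicles, at 56.1 ± 6.41 CPM in V3 and 71.9 ± 13.7 CPM in CTR (SD, n = 3 each). Of 8 processing genes, 6 were lower, with TLL1, a BMP1-like proteinase, at 56.3 ± 18.4 CPM in V3 and 114 ± 88.4 CPM in CTR and BMP1 at 163 ± 46.6 CPM in V3 and 271 ± 72.1 CPM in CTR. Of 6 cross-linking genes, 4 were higher, with LOX at 9.498 ± 7.92 CPM in V3 and 21.2 ± 28.1 CPM in CTR and LOXL2 at 445.3 ± 136 CPM in V3 and 367 ± 48.6 CPM in CTR. Both proteoglycans were lower, DCN at 0.840 ± 0.643 CPM in V3 and 4.58 ± 1.65 CPM in CTR and PODN at 1.76 ± 1.29 CPM in V3 and 5.74 ± 3.42 CPM in CTR. None of these genes was called either.

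Of 10 receptors, 7 were lower in V3, while ADGRG1 averaged 32 ± 11.8 CPM in V3 and 11.8 ± 1.92 CPM in CTR, and ITGA10 1.295 ± 0.890 CPM in V3 and 14.3 ± 19 CPM in CTR. Of 11 breakdown genes, 6 were lower, with MMP2 at 7.35 ± 2.58 CPM in V3 and 14.6 ± 8.201 CPM in CTR and MMP9 at 0.936 ± 0.532 CPM in V3 and 0.401 ± 0.277 CPM in CTR. Of 19 genes of the TGF-beta axis, 10 were lower, with TGFB1 at 153 ± 34 CPM in V3 and 244 ± 31.2 CPM in CTR. ADGRG1 had a higher mean in both receptor groups, which share the CTR libraries. Across the 7 lists edgeR called no gene, and 7 of 77 tested genes (9.09%) had an unadjusted p under 0.05, against 4.23% of all genes.

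KO tumours against the pooled WT and Het tumours asks what loss of Amhr2 does in the tumours. Most collagens had a higher fitted level in KO tumours, 26 of 34 tested (48.5% of all genes were higher), with a median log2 fold change of 0.29, against -0.00813 over all genes. No collagen passed edgeR's adjusted threshold (smallest adjusted p 0.999), nor did any of the 15205 genes (0%), and DESeq2 and limma called no collagen. At an unadjusted p under 0.05 stood 12 of 34 collagens, all higher in KO, against 4.14% of all genes, and 2.88% of all genes were also higher. In KO against WT alone 32 of 36 were higher (48.4% of all genes), with a median of 0.44, and 12 had an unadjusted p under 0.05, all higher, against 3.98% of all genes, or 2.66% in that direction. All KO tumours were above both WT tumours in 12 collagens, against 5.69% of all genes. EdgeR called none of 16287 genes there (0%, smallest adjusted p 0.950), and DESeq2 and limma no collagen. That comparison shares its tumours with the pooled one. The count of 12 in the pooled comparison was 4 without KO445, 4 without WT568, 6 without WT438, 7 without KO437 and 7 without Het569. With the tumour number, under or over 500, as a covariate it was 9 of 34. In KO against WT the count of 12 was 5 without KO445, 6 without KO437 and 7 without WT438.

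Fibrillar genes led in level. Values are CPM in the order KO437, KO445, KO479 and KO543, Het563 and Het569, and WT438 and WT568. Col1a1 had 5404, 7079, 4483 and 5834 CPM in KO, 4067 and 4566 CPM in Het, and 3639 and 3609 CPM in WT. All but KO479 were above every Het tumour, and all 4 KO tumours were above both WT tumours. Its log2 fold change was 0.52 (SE 0.17) against pooled WT and Het. Col3a1 had 4737, 5196, 5136 and 4906 CPM in KO, 4870.4 and 4229 CPM in Het, and 3808 and 4019.7 CPM in WT, and both WT tumours were the lowest. Col5a1 had 1677, 1675, 1182 and 1256 CPM in KO, 1419 and 1354 CPM in Het, and 975 and 1041 CPM in WT, again with both WT tumours lowest. Col5a3 had 534, 740.05, 267 and 769 CPM in KO, 352 and 504 CPM in Het, and 311 and 206 CPM in WT. KO479 lay below both Het tumours, so KO and the pooled group overlapped at a log2 fold change of 0.75 (SE 0.34).

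Col1a2 had 1163, 821, 1147 and 751 CPM in KO, 1068 and 1222 CPM in Het, and 647 and 1075 CPM in WT. It did not follow Col1a1, since Het569 was the highest and KO445, which had the most Col1a1, was below both Het tumours. Col5a2 had 205, 143, 197 and 104 CPM in KO, 204 and 186 CPM in Het, and 111 and 182 CPM in WT, with KO543 the lowest and KO437 the highest. Col11a1 had 112, 107, 108 and 109.7 CPM in KO, 81.1 and 58.4 CPM in Het, and 103 and 72 CPM in WT. The 4 KO tumours lay within 5 CPM of each other and above all Het and WT tumours, as 1.32% of all genes did in the pooled comparison, and the log2 fold change was 0.48 (SE 0.16). Col27a1 had 37, 63.2, 26.4 and 72.3 CPM in KO, 43.6 and 42.7 CPM in Het, and 18.8 and 35.4 CPM in WT, and Col11a2 had 11, 10.9, 4.42 and 4.28 CPM in KO, 5.95 and 7.71 CPM in Het, and 9.61 and 5.17 CPM in WT, and both overlapped. Col24a1 stayed at 1.62 to 5.72 CPM.

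**Figure D4:**
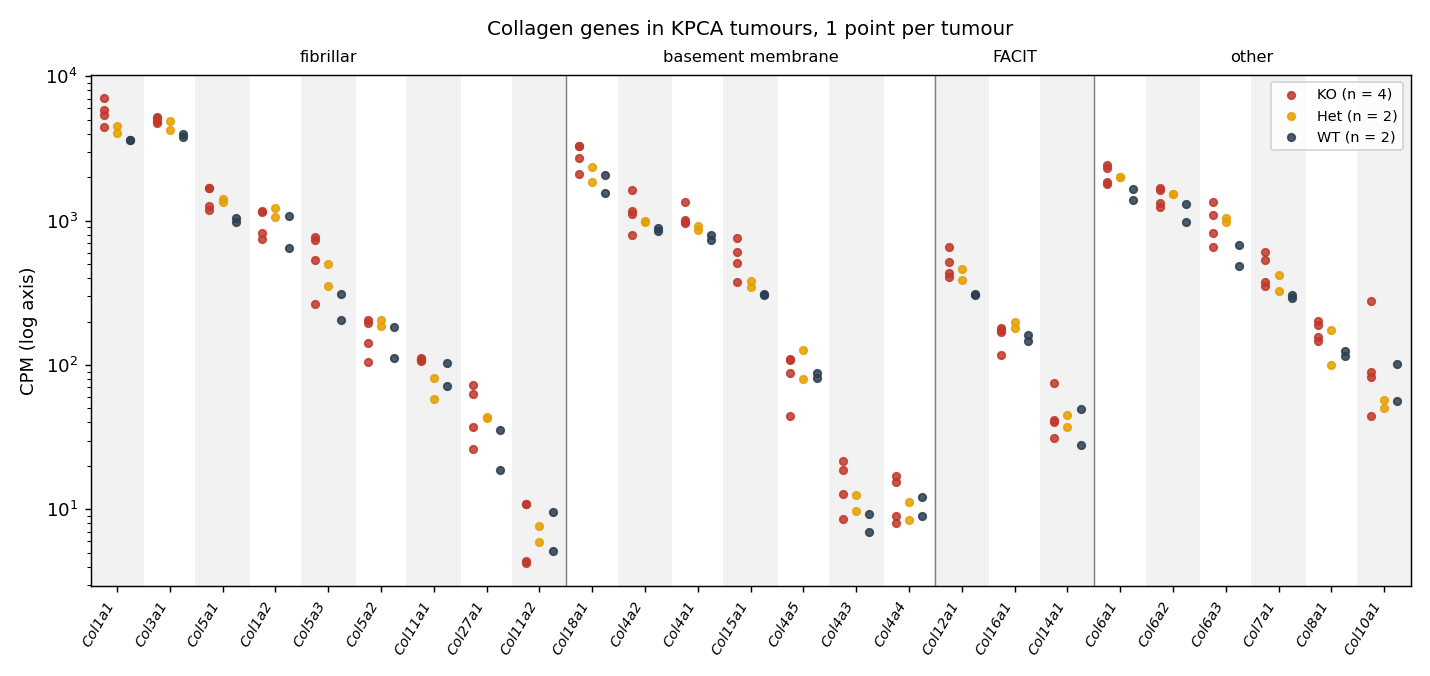
CPM of the 25 collagen genes with a mean of at least 5 CPM in the tumours, on a log axis, grouped by type (KO, Het and WT side by side, 1 point per tumour). In Col11a1 and Col4a1 every KO tumour lies above every Het and WT tumour, and Col10a1 has 1 KO tumour at 279 CPM.

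Basement membrane genes had 6 of 8 members higher in KO than in pooled WT and Het, with a median log2 fold change of 0.35. Col18a1 had 3312, 3276, 2095 and 2727 CPM in KO, 1849.8 and 2364 CPM in Het, and 2083 and 1566 CPM in WT. Only KO479 overlapped with the pooled group, and the log2 fold change was 0.54 (SE 0.19). Col4a1 at chr8:11198423-11312826 in the deposited table had 962, 1352, 975 and 1007 CPM in KO, 920.4 and 862 CPM in Het, and 801 and 733 CPM in WT. All KO tumours were above all Het and WT tumours, with a log2 fold change of 0.37 (SE 0.15) and an edgeR adjusted p of 0.999. Without KO445 its log2 fold change was 0.24. Col4a2, its head-to-head neighbour, had 1159, 1632, 1111 and 801 CPM in KO, 984 and 998 CPM in Het, and 896 and 849.5 CPM in WT, and KO543 was its lowest tumour. The 2 genes overlap by 22 bases in that table.

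Col15a1 at chr4:47208161-47313167 had 510.4, 764, 376 and 606 CPM in KO, 347 and 382 CPM in Het, and 312 and 305 CPM in WT. It had the smallest p of the family, with a log2 fold change of 0.75 (SE 0.20) against the pooled tumours and 0.87 (SE 0.26) against WT. Only KO479 lay below a Het tumour. Its edgeR adjusted p was 0.999 in the pooled comparison and 0.95 against WT. Col4a5 had 110.2, 88, 108 and 44.7 CPM in KO, 127 and 80.7 CPM in Het, and 87.7 and 82 CPM in WT, with KO543 the lowest. Col4a3 and Col4a4, the other chains of kidney-type basement membrane, were low. Col4a3 had 21.5, 18.7, 12.7 and 8.55 CPM in KO, 12.7 and 9.73 CPM in Het, and 6.95 and 9.24 CPM in WT, and Col4a4 had 15.6, 17, 8.95 and 7.98 CPM in KO, 8.400 and 11.3 CPM in Het, and 12.1 and 9.03 CPM in WT. Col4a6 stayed at 0.901 to 6.50 CPM.

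Among the FACIT genes Col12a1 had 519, 657, 437.4 and 405 CPM in KO, 462 and 390.4 CPM in Het, and 305 and 308 CPM in WT. All KO tumours were above both WT tumours and KO437 and KO445 above both Het tumours, at a log2 fold change of 0.46 (SE 0.19) in the pooled comparison. Col16a1 had 182, 176, 169 and 117 CPM in KO, 199 and 180.04 CPM in Het, and 148 and 160.5 CPM in WT, and KO543 was the lowest. Col14a1 had 40.5, 75.3, 31.4 and 41.7 CPM in KO, 45.3 and 37.1 CPM in Het, and 28.1 and 49.4 CPM in WT, with KO445 the highest. In the tumours the log2 fold change of Col14a1 was 0.24 (SE 0.26). Col20a1 and Col9a3 had at most 1.97 and 1.25 CPM.

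The 3 abundant collagen VI chains were lowest in a WT tumour. Col6a1 had 2414, 2313, 1862 and 1784 CPM in KO, 1998 and 2003 CPM in Het, and 1403 and 1653 CPM in WT. Col6a2 had 1639.9, 1679.6, 1317 and 1239.7 CPM in KO, 1525 and 1538 CPM in Het, and 985 and 1310.2 CPM in WT. Col6a3 had 1099, 1340.5, 658 and 823 CPM in KO, 1043 and 988 CPM in Het, and 486 and 676 CPM in WT. In all 3 genes WT438 was the lowest tumour, both Het tumours lay above both WT tumours, and KO and Het overlapped. Col6a3 was the one collagen with an unadjusted p under 0.05 in Het against WT, at a log2 fold change of 0.81 (SE 0.33).

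Of the rest, Col7a1 had 608, 533, 355 and 376 CPM in KO, 325 and 421 CPM in Het, and 304 and 291 CPM in WT. KO437 and KO445 were the highest and the log2 fold change was 0.48 (SE 0.20) in the pooled comparison. Col8a1 had 155, 202, 147 and 189.9 CPM in KO, 175 and 99.5 CPM in Het, and 126 and 116 CPM in WT. KO437 and KO479 were below Het563, and all KO tumours were above the other 3. Col10a1, which marks hypertrophic cartilage, had 90, 279, 82 and 44.2 CPM in KO, 57 and 50.3 CPM in Het, and 101 and 56.4 CPM in WT. KO445 was the highest, followed by WT438. Col8a2 had 5.19, 1.27, 5.05 and 0.567 CPM in KO, 3.500 and 7.21 CPM in Het, and 2.42 and 2.45 CPM in WT, and both Het tumours were above both WT tumours. Col23a1 and Col28a1, with at most 1.80 and 4.94 CPM, also had an unadjusted p under 0.05 in the pooled comparison. Col13a1, Col6a5, Col6a6 and Col17a1 had at most 3.69, 6.64, 0.927 and 1.03 CPM, and in Col6a5 the highest was KO543.

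Het tumours stood between the others for many genes. In Het against WT, 29 of 36 collagens were higher (48.5% of all genes) with a median log2 fold change of 0.29, and in KO against Het 23 of 36 were higher (53.1%) with a median of 0.20. The median in Het against WT was 0.45 without WT568. In KO against Het it was 0.08 without KO445, 0.31 without KO479 and 0.05 with the tumour number as a covariate. No collagen or other gene was called by edgeR in either (0%), and DESeq2 and limma called no collagen. At an unadjusted p under 0.05 stood 1 collagen in Het against WT (1.93% of all genes) and 2 in KO against Het (1.71%), Col11a1 and Col15a1. All KO tumours were above both Het tumours in Col11a1, Col23a1 and Col4a1, 3 of 36 against 6.01% of all genes. Both Het tumours were above both WT tumours in 18 of 36 collagens, against 14.7% of all genes. The group means ranked in the order KO, Het, WT for 17 of 36 collagens, against 18.9% of all genes, and in the reverse order for 1, against 17.5%. The extremes were spread unevenly over the tumours too. Of the 25 genes with at least 5 CPM the highest was KO445 for 12 and KO437 for 8, and the lowest was WT438 for 10, KO543 for 7 and WT568 for 6. These were not counted over all genes either, so they may not be particular to collagens.

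Stromal markers were set beside the collagens. The summed fibroblast markers were 1027 to 1380 CPM in KO, 933 to 979 CPM in Het and 816 to 891 CPM in WT, and of the 10 tested, 5 were higher and 5 lower in KO than in the pooled group. Against WT alone 6 of them were higher in KO, and against Het alone 4. All 10 were higher in Het than in WT, with 0 at an unadjusted edgeR p under 0.05. Summed pericyte and smooth muscle markers were 1125 to 1510 CPM in KO, 1022 to 1288 CPM in Het and 883 to 1391 CPM in WT, with 8 of 9 higher in KO than in the pooled group. KO437, the tumour highest for 8 collagens, stood apart for the muscle genes Myh11 (119 CPM, against at most 5.97 CPM elsewhere) and Des (121 CPM, against at most 21.1 CPM elsewhere). Endothelial markers were lower in 8 of 9. KO445, the tumour with the most collagen, had the most Pdgfrb (746 CPM, against at most 458 CPM elsewhere) but the least Krt7 (219 CPM), Dcn (38.3 CPM) and Fbln1 (43.6 CPM). Cartilage markers summed to 83.2 to 189 CPM in KO, 87.9 to 114 CPM in Het and 57.5 to 66.3 CPM in WT. Sox9 made up most of that sum, at 44.6 to 174 CPM, and Acan had 10.5 to 26.7 CPM. Comp, Matn3, Hapln1 and Matn1 had at most 2.94 CPM. The part of these cells in the collagen levels was not tested. The names of both WT columns end in a suffix found on no other tumour, and its part and that of the genotype cannot be told apart.

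The machinery genes gave a mixed picture in the tumours. Of 21 synthesis genes, 15 were higher in KO than in pooled WT and Het, with Creb3l1, a transcription factor of the secretory pathway, at 84.9 ± 25.4 CPM in KO tumours and 56.6 ± 16 CPM in the pooled WT and Het tumours and P3h1 at 106 ± 18.1 CPM in KO tumours and 85.1 ± 6.09 CPM in the pooled WT and Het tumours (SD, n = 4 each). Of 7 processing genes, 5 were higher, with Bmp1 at 768 ± 178 CPM in KO tumours and 516 ± 42.9 CPM in the pooled WT and Het tumours and the N-proteinase Adamts14 at 37.5 ± 7.42 CPM in KO tumours and 26.2 ± 5.73 CPM in the pooled WT and Het tumours. Of 6 cross-linking genes, 3 were higher, with Loxl2 at 303 ± 38.1 CPM in KO tumours and 246 ± 28.7 CPM in the pooled WT and Het tumours and Lox at 59.9 ± 22.7 CPM in KO tumours and 76.1 ± 13.3 CPM in the pooled WT and Het tumours. Of 9 proteoglycans, 4 were higher, with asporin (Aspn) at 47.4 ± 14.1 CPM in KO tumours and 29.8 ± 6.27 CPM in the pooled WT and Het tumours and Prelp at 21.6 ± 8.47 CPM in KO tumours and 30.6 ± 13.6 CPM in the pooled WT and Het tumours. Bmp1 was higher here and its human counterpart was lower in V1, and neither passed the adjusted threshold.

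Of 11 receptors, 6 were higher in KO, with the integrin chains Itga11 at 17.2 ± 6.07 CPM in KO tumours and 10.6 ± 2.797 CPM in the pooled WT and Het tumours and Itga2 at 41 ± 18 CPM in KO tumours and 27.2 ± 5.03 CPM in the pooled WT and Het tumours. Of 12 breakdown genes, 10 were higher, with the gelatinase Mmp9 at 186 ± 97.7 CPM in KO tumours and 90 ± 31.3 CPM in the pooled WT and Het tumours and Fap, also in the fibroblast list, at 43 ± 15.7 CPM in KO tumours and 29.9 ± 4.75 CPM in the pooled WT and Het tumours. Of 19 genes of the TGF-beta axis, 11 were higher, with Tgfb2 at 71.7 ± 16.5 CPM in KO tumours and 44.4 ± 8.16 CPM in the pooled WT and Het tumours and Smad7, an inhibitor of the pathway, at 66.5 ± 11.9 CPM in KO tumours and 54.4 ± 10.4 CPM in the pooled WT and Het tumours. Across the 7 lists edgeR called no gene, and 11 of 85 tested genes (12.9%) had an unadjusted p under 0.05, against 4.14% of all genes.

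Chains of a molecule are joined in fixed proportions, so their RNA ratios within a library were compared as ratios of FPKM. These depend on the deposited gene lengths, which are the same in every library of a species. Collagen I needs COL1A1 and COL1A2, and COL1A2 to COL1A1 was 0.128, 0.436, 0.0806 and 0.0278 in V1, 0.0260, 0.0833 and 0.0389 in V3 and 0.283, 0.0323 and 0.0223 in CTR. V1 2 and CTR 1 were the highest, and the ratio varied 19.6-fold. In the tumours it was 0.114, 0.0612, 0.135 and 0.0680 in KO, 0.139 and 0.141 in Het and 0.0939 and 0.157 in WT, with KO445 and KO543 the lowest.

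COL4A2 to COL4A1, the network chains, was 1.95, 1.67, 2.09 and 1.59 in V1, 1.56, 2.21 and 3.34 in V3 and 1.51, 1.499 and 1.68 in CTR, so V3 3 was the highest. In the tumours it was 1.36, 1.36, 1.28 and 0.896 in KO, 1.21 and 1.31 in Het and 1.26 and 1.31 in WT. Only KO543 was below 1. Collagen VI kept a narrow ratio, as Col6a2 to Col6a1 was 0.357, 0.382, 0.372 and 0.366 in KO, 0.402 and 0.404 in Het and 0.370 and 0.417 in WT. It varied 1.17-fold over the tumours while Col6a2 itself varied 1.68-fold and Col6a1 1.71-fold.

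COL6A2 to COL6A1 in Met5a was 0.522 to 0.825, with a spread of 1.58-fold. COL6A3 to COL6A1 was 0.000104 to 0.0641 in Met5a, with CTR 1 the highest, and 0.127 to 0.212 in the tumours. COL5A2 to COL3A1, the tail-to-tail neighbours, was 4.597, 1.103, 9.95 and 2.23 in V1, 2.08, 5.11 and 13.3 in V3 and 0.955, 1.49 and 2.11 in CTR, and 0.0218 to 0.0464 in the tumours. COL5A2 to COL5A1 was 1.74 to 4.26 in Met5a and 0.0735 to 0.155 in the tumours. COL8A2 to COL8A1 was 0.0240 to 1.54 in Met5a and 0.00521 to 0.127 in the tumours.

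Of 21 two-sided exact permutation tests on these log2 ratios (7 ratios, in V1 and V3 against CTR and in KO against pooled WT and Het), the smallest p was 0.0857, for Col6a2 to Col6a1 in the tumours, with a Benjamini-Hochberg value of 0.467. With 3 libraries against 3, V3 against CTR cannot go below 0.1. COL6A3 to COL6A1 stood at that limit, with all V3 ratios below all CTR ratios. V1 against CTR, with 35 arrangements counted in both directions, cannot go below 0.05 either. Its smallest exact p was 0.114, for COL6A3 to COL6A1. The Met5a tests therefore cannot decide at 0.05 whether these ratios differ.

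**Figure D5:**
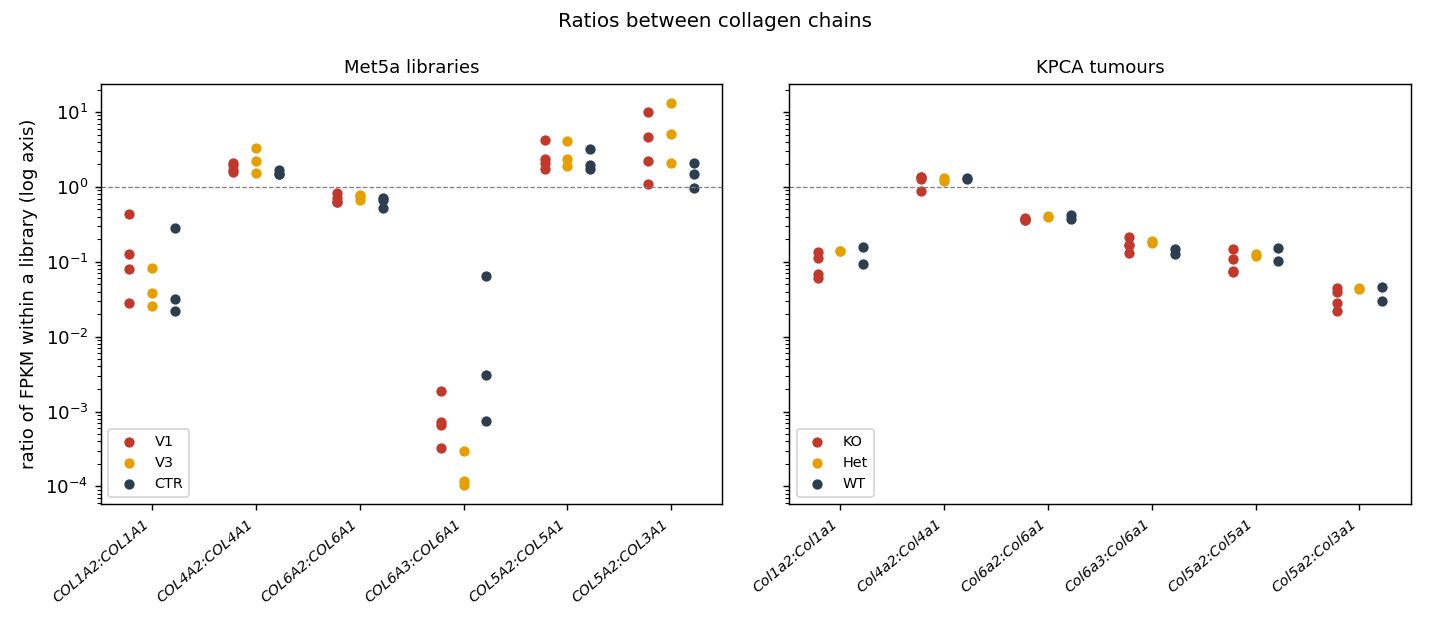
Ratio of FPKM between pairs of collagen chains within each library, on a log axis, for Met5a (left: V1, V3, CTR) and tumours (right: KO, Het, WT), 1 point per library, with a dashed line at 1. COL5A2 to COL5A1 lies at 1.74 to 4.26 in Met5a and at 0.0735 to 0.155 in the tumours, and Col6a2 to Col6a1 has the narrowest spread.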

How the data were processed

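RNA came from 10 Met5a libraries and 8 KPCA tumours, taken with a column kit and sequenced by a company, per the labels' protocols. The authors deposited a table of whole-number counts for each species, and FPKM values that equal the count over gene length times a factor that is constant within a library. Aligner, counter, strand setting and mouse build are not given here. All columns of samples were used, and no count stood outside a gene. Titles set the groups, because every tumour has the genotype tag WT.

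The filter was filterByExpr (edgeR 4.0.16, minimum count 10), and CPM use TMM-scaled library sizes. The quasi-likelihood test had 1 coefficient per group over the libraries of a species, was two-sided and was Benjamini-Hochberg adjusted over all tested genes at 0.05. For KO against pooled WT and Het, 2 groups were fitted. Each SE was derived from that test, as the absolute log2 fold change over the square root of its F statistic. The alternatives tried were RLE factors, an unfiltered fit, DESeq2 1.42.0, limma 3.58.1 on log2(FPKM + 1) (genes reaching an FPKM of 1), fits to the compared groups, a replicate block, tumour number as a covariate, 3 tumour groups in place of 2, and leaving out single libraries. The joint removal of CTR 3 and V1 1, and of KO543 and WT438, was added after seeing the data. The procedure was tested on simulated data for V1 against CTR and KO against pooled WT and Het only. Changes were placed in genes with high counts, so low collagens were not covered. Chain ratios were compared by exact permutation tests.

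Members, gene lists and alternatives were chosen with earlier results of these data known. Values per library are given for collagens with a mean of at least 5 CPM or, from 1 CPM, with groups that do not overlap, and of each gene list for the pair with the smallest p, of which 1 gene is not reported here. Untested COL11A1 and COL21A1 were named after their values were seen. Coding stretches come from GENCODE 29 on GRCh38, whose gene positions match the deposited human table, and promoters from RefSeq on GRCh38.p14. Protein sequences were not used here. Mouse positions are as deposited.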

Additional observations from a re-analysis of the deposited data

Results flagged for a closer look

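Groups of 4 libraries were examined for a library far from the rest of its group, in 47 gene and group combinations. A pair of them had one, and chance gives about 1 in 20 groups. COL1A2 was 12 CPM in V1 2, against 1.27 to 2.55 CPM in the other V1 libraries. Col4a1 was 1352 CPM in KO445, against 962 to 1007 CPM in the other KO tumours.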

How the results depend on the processing

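The lack of collagen calls by edgeR held with RLE factors, with the compared groups only and with each library left out. Without the count filter edgeR called 6 of 44 collagens and 533 of 35629 genes (1.5%) in V1 against CTR (COL11A1, COL14A1, COL1A1, COL1A2, COL21A1 and COL6A3), 7 of 44 collagens and 226 genes (0.634%) in V3 against CTR, 3 of 43 collagens and 276 of 28942 genes (0.954%) in KO against WT, 1 of 43 collagens and 154 genes (0.532%) in KO against Het, and 75 genes in V1 against V3 and 63 in Het against WT. DESeq2 called 2 collagens of 50 genes in V1 against CTR and 2 of 5 in V3 against CTR, and 1, 5, 3, 1 and 1 genes in V1 against V3, KO against WT, KO against Het, Het against WT and KO against pooled WT and Het. Limma called 1 gene each in V1 against CTR, V3 against CTR and KO against WT. With the compared groups only, 0 genes were called in V1 against CTR and 1 in V3 against CTR. Without CTR 3 and V1 1, 0 were called in V1 against CTR. Leaving out 1 library gave 0 to 6 genes in V1 against CTR, 0 to 3 in V1 against V3, 0 to 2 in KO against WT and 0 to 2 in Het against WT. The cause of these changes was not tested.

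Met5a libraries share replicate numbers, and whether these pair them is not known. Deviations of same-numbered libraries from their group means had correlations of -0.23 to 0.33. Those of differently numbered libraries had -0.38 to 0.46. With so few libraries per group these values cannot decide whether there is a pairing. With a replicate block 0 genes were called in V1 against CTR and 3 in V1 against V3, and 0 collagens. Without CTR 1 the log2 fold change of COL1A2 in V1 against CTR was 0.85, against -2.46 with it, and leaving out each library gave -3.68 to 0.85. The median collagen log2 fold change in V1 against V3 was 0.01 without V1 3 and 0.11 without V3 1, against -0.13 with all. Collagens near the limit of 3 counts in both groups of a comparison cannot show differences at this depth.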
